A study of Mus musculus with 8 samples.

Results

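The miR-15/16 family is a group of microRNAs (miRNAs, short RNAs that lower the output of messenger RNAs) with the same seed, bases 2 to 8 of the mature strand, by which a miRNA pairs with its targets. Its members were taken as the rows of the miRNA class whose name equals 1 of 5 listed mature names. A row was found for 4 of them, mmu-miR-16-5p, mmu-miR-15b-5p, mmu-miR-15a-5p and mmu-miR-195a-5p, among 952 miRNA rows and 1010917 rows in all, and mmu-miR-322-5p was not analysed here. All 4 rows passed the filter on low counts, as did 228 miRNA rows and 10234 rows over the whole table.

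Small RNA was sequenced from spermatozoa of C57BL/6J mice with 4 libraries in a group labelled Control-Cessation and 4 in a group labelled EtOH-Cessation (EtOH is ethanol), a comparison of alcohol-treated and control males after treatment had stopped, per the series title. All 8 titles read mature sperm, but the series' design text names the caput, the upper end of the epididymis. The sources used here give no dose, route, duration or age, nor is it stated that libraries came from separate mice, so the p-values below measure only the spread between these samples, which may be technical. The sperm identifiers have the form PO_M in EtOH replicates 1 and 2, PO_EM in EtOH replicates 3 and 4 and PO_CM in all controls, with no word on what the forms mean. Library totals ran from 4210785 to 4768713 counts in controls and from 3116421 to 6805989 in the EtOH group. The 9 listed sperm and spermatid transcripts were all detected, with a summed level of 511 to 641 CPM (counts scaled to a common library size) in controls and 261 to 417 in the EtOH group. The listed epididymal epithelium transcripts (9 of 10 found) summed to 412 to 608 CPM in controls and 733 to 16654 in the EtOH group, highest in EtOH replicate 2, which also stood apart on the first principal component (at 132, with the other libraries between -64.9 and 39). Crisp1, Cd52 and Adam7 made up nearly all of that sum, with 38096, 10819 and 5990 counts over exons in EtOH replicate 2. Lcn5, Lcn8, Lcn9 and Cst8 were each at 0 in at least 1 library and had at most 9 counts in any.

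Members of the family are made in pairs from shared primary transcripts, and a Dicer-cut duplex leaves mostly the 5p strand in an Argonaute protein. They are best known for holding back the cell cycle and cell survival, through cyclins such as Ccnd1 and the survival factor Bcl2, and loss of the Dleu2 locus that carries miR-15a and miR-16-1 is a classic event in chronic lymphocytic leukaemia. In mammalian tissues miR-16-5p is abundant in many cell types, red blood cells among them.

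The mature sequences below, from RefSeq (GRCm38.p6), show what the members share and where they part, since the counts of near-identical members rest on the bases outside the seed. The seed is in capitals, and miR-497a-5p is included because it has the same seed, a row of its own and a place beside miR-195a.

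miR-16-5p: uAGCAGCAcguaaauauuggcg
miR-195a-5p: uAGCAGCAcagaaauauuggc
miR-15a-5p: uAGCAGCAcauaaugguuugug
miR-15b-5p: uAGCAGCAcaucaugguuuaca
miR-322-5p: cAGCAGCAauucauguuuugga
miR-497a-5p: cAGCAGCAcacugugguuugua

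The seed AGCAGCA was held by 10 of 1679 mature mouse names in the RefSeq table (0.596%), at 11 loci, and 5 of these names had a row. Aligned from the 5′ end, miR-16-5p and miR-195a-5p were identical at 19 of 21 positions and differed by G10A and U11G (the first-named base is that of miR-16-5p, counted from 1 at the 5′ end). MiR-15a-5p and miR-15b-5p were identical at 18 of 22 positions and differed by A12C, G20A, U21C and G22A, and miR-15b-5p and miR-16-5p at 14 of 22. How reads that match several places were assigned is not given in the sources used here. Mature miR-16-5p has the same letters at chr14:61631936-61631957 (minus strand, Mir16-1) and chr3:69009918-69009939 (plus strand, Mir16-2), so its row cannot be split between the loci. Mir15a lies at chr14:61632075-61632096, with 117 bases between its 5p strand and that of Mir16-1, Mir15b lies at chr3:69009775-69009796, with 121 bases to that of Mir16-2, and Mir195a lies at chr11:70235062-70235082, with 310 bases to that of Mir497.

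MiR-16-5p was the most abundant miRNA row in all 8 libraries. The next by mean CPM over all 8 libraries were let-7a-5p, let-7c-5p, miR-143-3p and miR-191-5p. Both let-7 rows were listed at 0 in control replicate 2, where miR-143-3p was highest at 32549 CPM, and among controls the mean of miR-143-3p (11518 CPM) lay above that of let-7c-5p (9484 CPM). In control replicates 1 to 4 miR-16-5p held 31.97%, 28.7%, 25.4% and 28.1% of all miRNA counts, and in EtOH replicates 1 to 4 it held 29.1%, 24.7%, 26.7% and 29.7%. Within the family the order of levels was miR-16-5p, miR-15b-5p, miR-15a-5p, miR-195a-5p in 6 libraries. The order differed in EtOH replicate 1, which listed miR-15a-5p at 0, and in EtOH replicate 3, which listed miR-15b-5p at 0. MiR-16-5p lay above every value of the other members, and miR-15b-5p lay above miR-15a-5p in each library that did not list it at 0, while the ranges of miR-15a-5p and miR-195a-5p overlapped in both groups.

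Relative to the whole library, all members had their lower values in the EtOH group. The CPM here are scaled with edgeR's trimmed mean of M values (TMM) on the rows that passed the filter. MiR-16-5p stood at 68256, 102733, 55006 and 55185 CPM in control replicates 1 to 4 and at 29206, 16205, 27879 and 22831 CPM in EtOH replicates 1 to 4. Every EtOH library lay below every control, with control replicate 2 highest and EtOH replicate 2 lowest. Its mean was 70295 ± 22498 CPM in controls and 24030.2 ± 5895 CPM in the EtOH group (SD, n = 4 each), a fitted level 2.93-fold higher in controls (95% interval 1.65 to 5.18). The log2 fold change, EtOH over control, was -1.55 (SE 0.38) with an adjusted p of 0.0525 in edgeR's quasi-likelihood test with Benjamini-Hochberg adjustment over all 10234 rows, just short of the threshold of 0.05. That adjusted p was shared by 437 rows, 320 higher and 117 lower, all of them just above the threshold. Leaving out single libraries gave -1.36 to -1.71, with an edgeR adjusted p of 0.0167 without EtOH replicate 3, 0.0431 without EtOH replicate 2 and up to 0.134 otherwise.

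MiR-15b-5p, processed from the same primary transcript as miR-16-2, stood at 4581, 6175, 3632 and 2682 CPM in control replicates 1 to 4 and at 1501, 1016, 0 and 1082 CPM in EtOH replicates 1 to 4. The EtOH libraries again lay below all controls, and EtOH replicate 3 listed it at 0 where the other EtOH libraries and all libraries together predict at least 7329 counts. A count of 0 allows up to 3 counts. Its mean was 4267 ± 1489 CPM in controls (SD, n = 4), and 899.8 ± 637 in the EtOH group (SD, n = 4) or 1199.75 ± 263 without the one at 0 (SD, n = 3). The log2 fold change was -2.25 (SE 1.21, edgeR adjusted p = 0.251), and -1.91 (edgeR adjusted p = 0.0114) without EtOH replicate 3; leaving out the other libraries in turn gave adjusted p up to 0.362.

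MiR-15a-5p, the partner of miR-16-1, stood at 667, 1168, 509 and 509.9 CPM in control replicates 1 to 4 and at 0, 119, 323 and 206 CPM in EtOH replicates 1 to 4. Here too no EtOH library reached a control, and the 0 was in EtOH replicate 1, where at least 1244 counts are predicted in the same way. Its mean was 714 ± 312 CPM in controls (SD, n = 4), and 162 ± 137 in the EtOH group (SD, n = 4) or 216 ± 103 without the one at 0 (SD, n = 3). The log2 fold change was -2.14 (SE 1.10, edgeR adjusted p = 0.228), and -1.52 (edgeR adjusted p = 0.0832, the lowest on leaving out single libraries, the highest being 0.371) without EtOH replicate 1. MiR-15b-5p was detected in EtOH replicate 1, and miR-15a-5p in EtOH replicate 3, so neither library was at 0 for both. Such isolated zeros, with at least 50 counts predicted, occurred in 68 features, 31 of them miRNA rows, and in every library.

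MiR-195a-5p, made with miR-497a-5p from a locus separate from the other members, stood at 224, 803, 164 and 136 CPM in control replicates 1 to 4 and at 94.4, 56.6, 117 and 66.8 CPM in EtOH replicates 1 to 4. The groups did not overlap, but control replicate 2 alone held 2622 of the 4610 control counts. Its mean was 332 ± 316 CPM in controls (SD, n = 4), 175 ± 44.6 without control replicate 2 (SD, n = 3), and 83.8 ± 27.5 in the EtOH group (SD, n = 4). The log2 fold change was -1.98 (SE 0.57, edgeR adjusted p = 0.0566). Without control replicate 2 it was -1.11 (edgeR adjusted p = 0.164), the smallest change and highest adjusted p over the libraries left out in turn, and without EtOH replicate 3 it was -2.28 (edgeR adjusted p = 0.0222), the lowest adjusted p.

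**Figure D1:**
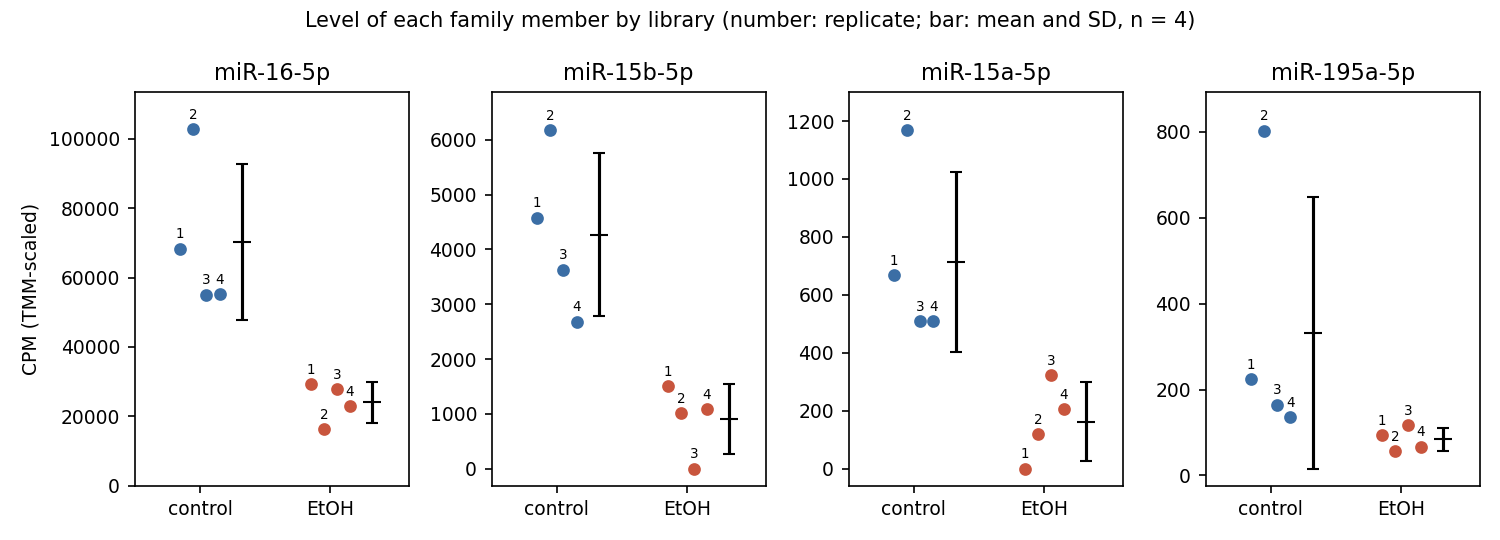
TMM-scaled CPM (vertical axis, linear, 1 scale per panel) of each member in the control and EtOH libraries. Points are libraries numbered by replicate, bars the mean and SD of 4 libraries; no EtOH point reaches the lowest control point in any panel, and control replicate 2 stands at 803 CPM for miR-195a-5p.

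None of the 4 members passed the edgeR threshold, beside 14 rows called lower of the whole table (0.137%, and 0.439% of the miRNA rows) and 19 called in either direction (0.186%). The 19 calls were 5 higher and 14 lower, and became 1 higher and 8 lower with median-of-ratios size factors. At an unadjusted p below 0.05, 2 of 4 members were lower, miR-16-5p and miR-195a-5p, where 9.15% of all tested rows and 66.7% of the miRNA rows were. All 4 members had every EtOH library below every control, which was so for 7.81% of all tested rows and for 48.7% of the miRNA rows. DESeq2 put 2 members past its threshold (3.95% of all rows and 51.3% of miRNA rows were lower there), miR-16-5p with an adjusted p of 2.5e-05 and miR-195a-5p with 0.0064; limma voom with quality weights also put 2 past it (2.34% and 32.5%), miR-16-5p (adjusted p = 0.0221) and miR-15a-5p, whose fitted change there was -6.96 with its library at 0 included (adjusted p = 0.035). Over the alternatives computed the adjusted p ran from 2.5e-05 to 0.97 for miR-16-5p from 0.0064 to 0.814 for miR-195a-5p, from 0.0101 to 0.96 for miR-15a-5p and from 0.0076 to 0.97 for miR-15b-5p, the upper ends in the fit on miRNA rows alone.

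The members' changes lay inside the range of miRNAs as a class. The median log2 fold change was -2.06 over the 4 members, -1.56 over the 228 tested miRNA rows (quartiles -1.92 and -1.04) and -0.09 over all tested rows. MiR-16-5p sat in the middle of the miRNA rows, with 116 of 228 below it. MiR-195a-5p had 52 rows below it, miR-15a-5p 30 and miR-15b-5p 26, and the latter pair's values each include a library at 0.

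**Figure D2:**
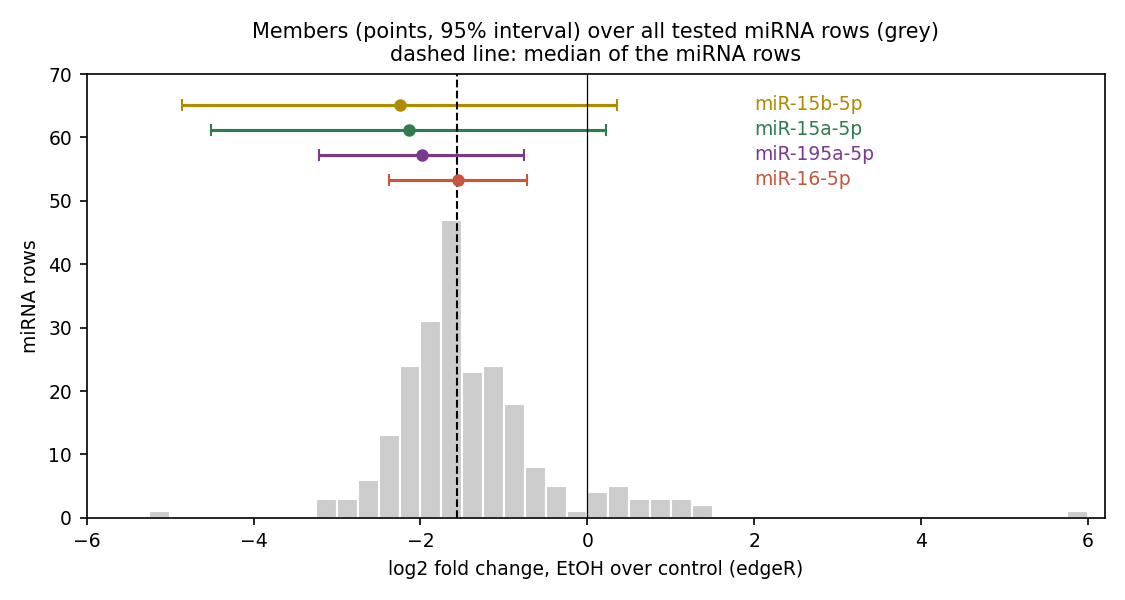
Log2 fold change, EtOH over control, from edgeR (horizontal axis) for the 228 tested miRNA rows (grey bars, number of rows on the vertical axis) and for the 4 members (points with 95% intervals, placed above the bars for legibility). The dashed line is the miRNA median of -1.56; miR-16-5p at -1.55 lies on it and the intervals of all 4 members span it.

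The family took a smaller part of the EtOH libraries, while its part of the miRNA counts overlapped between the groups. Summed over its rows, the family held 6.42%, 8.60%, 4.86% and 4.998% of all counts in control replicates 1 to 4 and 2.97%, 1.84%, 2.75% and 2.20% in EtOH replicates 1 to 4. All miRNAs together held 20.2% ± 5.06 of the counts in controls and 8.44% ± 1.71 in the EtOH group (SD, n = 4 each). Of the miRNA counts alone, the family's part was 34.5%, 31.02%, 27.4% and 29.8% in control replicates 1 to 4, and 30.6%, 26.5%, 27.1% and 31.5% in EtOH replicates 1 to 4. The groups did not overlap on the first scale and overlapped on the second, where the means were 30.7% ± 2.99 and 28.9% ± 2.52 (SD, n = 4 each). These shares are relative to the other RNA in each library. The median log2 fold change was 0.70 over the tested exon rows and -0.41 over the tested intron rows. In these bulk samples, fewer cells of a type, less RNA per cell and more of other RNA cannot be told apart.

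Shares of the miRNA counts were compared member by member in a two-sided exact permutation test over the 70 splits (smallest possible p 0.0286). The p-values were adjusted over the 4 members. After that adjustment a single member could not pass the threshold even at the smallest possible p. The adjusted values therefore cannot decide on a single member. Before adjustment no member reached the smallest possible p, the lowest exact permutation p being 0.143 for miR-15b-5p. MiR-16-5p held 28.5% ± 2.71 in controls and 27.5% ± 2.32 in the EtOH group (SD, n = 4 each; exact permutation p = 0.629, adjusted 0.8286). MiR-195a-5p held 0.119% ± 0.0723 and 0.0948% ± 0.0121 (exact permutation p = 0.8286, adjusted 0.8286). MiR-15b-5p held 1.73% ± 0.321 and 1.11% ± 0.744 (exact permutation p = 0.143, adjusted 0.514), and 1.48% ± 0.0693 in the EtOH group without the one at 0 (n = 3, exact permutation p = 0.286). MiR-15a-5p held 0.283% ± 0.0434 and 0.19% ± 0.137 (exact permutation p = 0.257, adjusted 0.514), and 0.253% ± 0.0656 without its library at 0 (n = 3, exact permutation p = 0.514). As shares of all library counts, each member differed with the smallest p the design allows (exact permutation p = 0.0286, adjusted 0.0286), lower in 4 of 4 EtOH libraries. All miRNAs together did not overlap on this scale either, at 16.8% to 27.7% in controls and 6.96% to 10.1% in the EtOH group. How many rows did so was counted on TMM-scaled CPM alone, where every EtOH library lay below every control in 48.7% of miRNA rows and 7.81% of all tested rows.

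**Figure D3:**
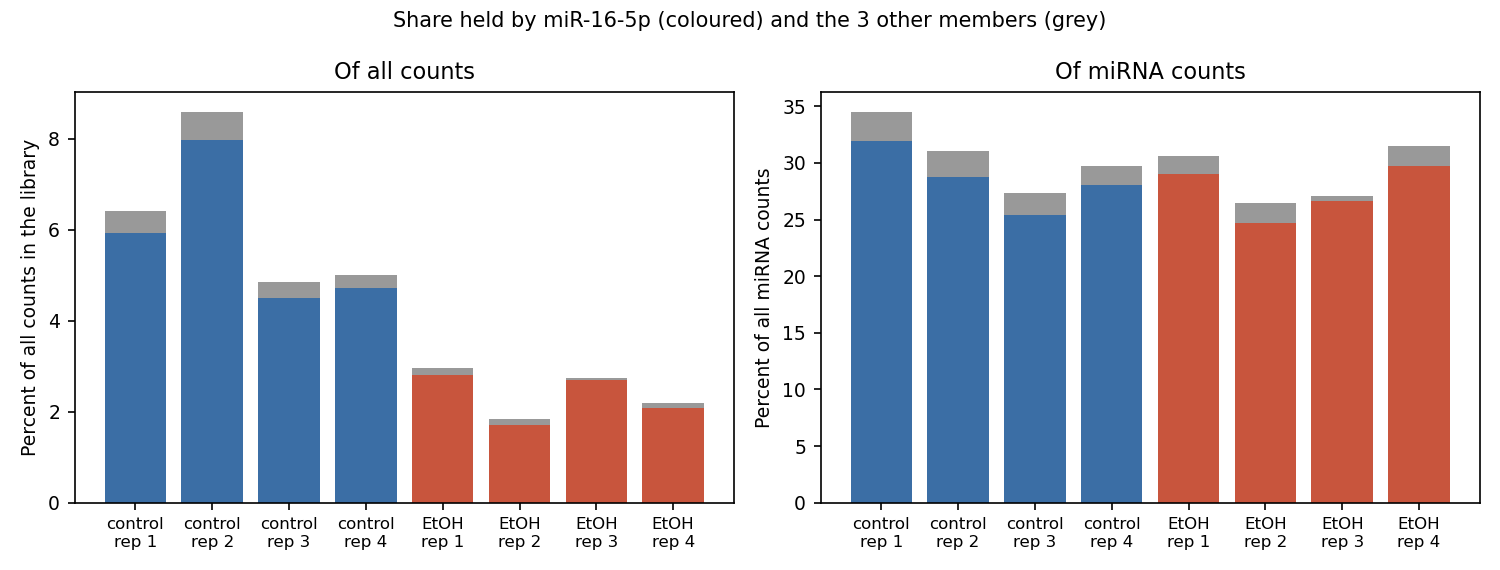
Share of each library's counts (left, percent) and of its miRNA counts (right, percent) held by miR-16-5p (blue in controls, red in EtOH libraries) and by the other members together (grey, stacked). On the left the EtOH bars reach 1.84% to 2.97% and the control bars 4.86% to 8.60%; on the right both groups lie between 26.5% and 34.5%, and the grey part is thin in EtOH replicate 3, which lists miR-15b-5p at 0.

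The 6 ratios between members, on a log2 scale with 0.5 counts added, were also compared by exact permutation and adjusted over the 6 pairs. A single pair could not pass after adjustment even at the smallest possible p, so the adjusted values cannot decide on a single pair. Before adjustment no pair reached the smallest possible p (lowest exact permutation p = 0.2, adjusted 0.686). MiR-16-5p exceeded miR-195a-5p by 8.07 ± 0.74 in controls and 8.18 ± 0.22 in the EtOH group (SD, n = 4 each), the ratio in which no library is at 0. Where libraries at 0 were left out, miR-15b-5p lay below miR-16-5p by a log2 ratio of -4.06 ± 0.21 in controls and -4.23 ± 0.21 in the EtOH group (n = 4 and n = 3, exact permutation p = 0.4). The ratio of miR-15a-5p to miR-16-5p was -6.66 ± 0.14 and -6.77 ± 0.33 (n = 4 and n = 3, exact permutation p = 0.457). With 4 libraries against 3 the smallest possible p is 0.0571.

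The other products of these loci were close to the detection limit. The 6 opposite arms, the strands that are mostly discarded, held 58 counts in controls and 36 in the EtOH group in all, and none entered the test. Those of miR-16 held 26 and 12 counts beside 1014817 and 543133 of miR-16-5p. The precursor row mir-16-1 in the miRNA class held 14, 17, 10 and 9 counts in control replicates 1 to 4 and 17, 5, 15 and 3 in EtOH replicates 1 to 4 (log2 fold change -0.93, SE 0.46, edgeR adjusted p = 0.215). The hairpin row mir-16-1 held 27, 30, 21 and 21 counts and then 20, 5, 20 and 7. Scaled to CPM its EtOH libraries all lay below the controls, as in 7.81% of all tested rows. The log2 fold change of this hairpin row was -1.55 (SE 0.41, edgeR adjusted p = 0.0525). Hairpin row mir-16-2 held 28 counts in controls and 30 in the EtOH group and was not tested.

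Of the host genes 3 intron rows and no exon row could be tested, and none passed the edgeR threshold, as 0.232% of all intron rows did. Mir15b and Mir16-2 lie within an intron of Smc4, a condensin subunit, and Mir15a and Mir16-1 within an intron of Dleu2, a long noncoding RNA, in the GENCODE annotation. The Smc4 intron row of that number (intron_4, counted from 0) held 13, 13, 15 and 11 counts in control replicates 1 to 4 and 37, 24, 33 and 8 in EtOH replicates 1 to 4 (log2 fold change 0.44, SE 0.45, edgeR adjusted p = 0.592). For Dleu2 the number depends on the direction of counting. Row intron_2 held 7, 7, 9 and 6 counts and then 17, 9, 18 and 16 (log2 fold change 0.49, SE 0.35, edgeR adjusted p = 0.401). Its CPM were 1.47 to 2.53 in controls and 2.65 to 3.09 in the EtOH group, without overlap, on at most 18 counts per library. The share of intron rows with every EtOH library above every control was not counted. Row intron_3 was too low to test. The other tested row, Dleu2 intron_5, held 115 counts in controls and 139 in the EtOH group (log2 fold change -0.31, SE 0.41, edgeR adjusted p = 0.703). Whether reads of the miRNAs were kept out of the intron rows is not given in the sources used here.

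MiR-497a-5p, which shares the seed and lies beside miR-195a, followed miR-195a-5p in standing highest in control replicate 2. It held 49, 266, 54 and 40 counts in control replicates 1 to 4 and 38, 16, 54 and 20 in EtOH replicates 1 to 4, with a log2 fold change of -2.37 (SE 0.66, edgeR adjusted p = 0.0541). MiR-195a-5p had 9.86 to 17.3 counts for each count of miR-497a-5p in the control libraries and 11.7 to 17.3 in the EtOH group, ranges that overlap. Of the X-linked locus that carries miR-322, only rows other than miR-322-5p were analysed, and all had low counts. The most counted was miR-450a-5p with 30 counts in controls and 6 in the EtOH group, followed by miR-322-3p with 9 and 4 and miR-503-5p with 8 and 3.

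Markers of other cell types also differed between libraries. Smooth muscle miRNAs (3 of 3 listed found) summed to 2017 to 43068 CPM in controls, highest in control replicate 2, and to 1473 to 3796 CPM in the EtOH group, with miR-145a-3p at 0 in at least 1 library. Striated muscle miRNAs (2 of 3 found) summed to 382 to 4350 CPM in controls, again highest in control replicate 2, and to 148 to 415 CPM in the EtOH group. For each 1000 counts of miR-16-5p, miR-195a-5p had 7.82 counts in control replicate 2, 2.47 to 3.28 in the other controls and 2.92 to 4.21 in the EtOH group. Control replicate 2 was thus high in miR-195a-5p, miR-497a-5p and muscle miRNAs alike. It was also the highest control for miR-16-5p, miR-15b-5p and miR-15a-5p. Of the leukocyte miRNAs it was the highest control for miR-150-5p (192 CPM), miR-223-3p (54.8 CPM) and miR-155-5p (28.8 CPM), but listed miR-142a-5p at 0. The part of muscle or leukocyte RNA in the result was not tested. Without control replicate 2 the fitted change of miR-195a-5p was -1.11, as given above.

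**Figure D4:**
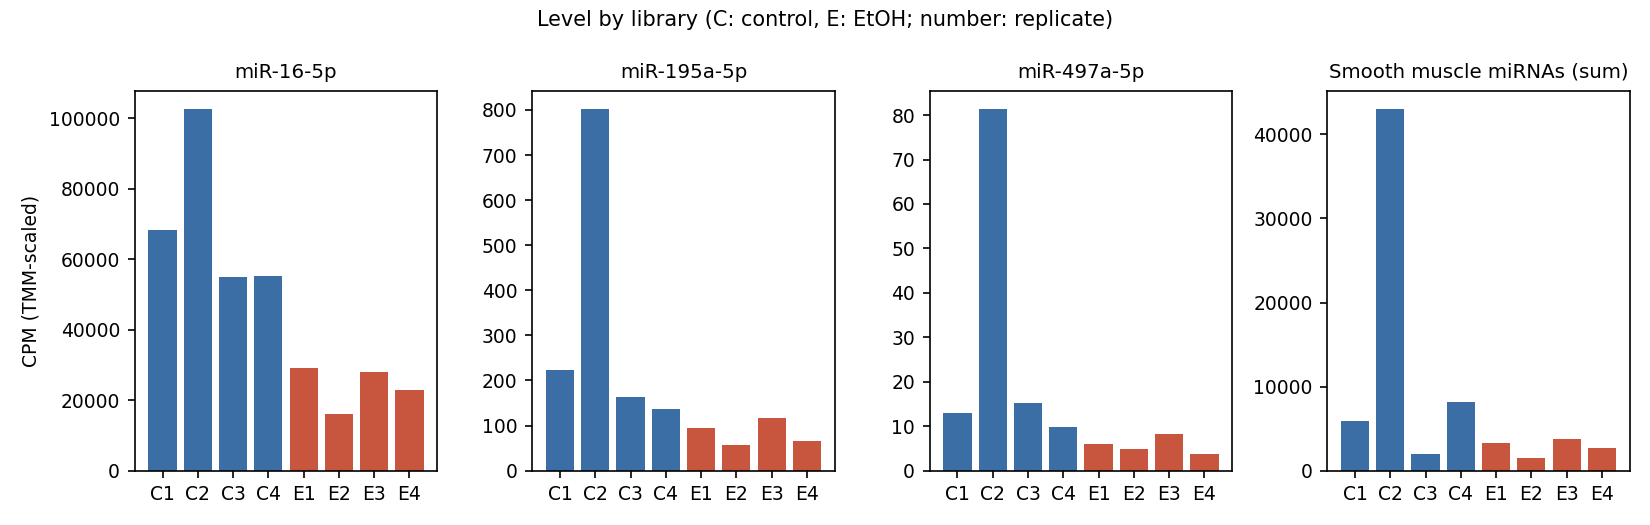
TMM-scaled CPM (vertical axes, linear from 0, 1 scale per panel) of miR-16-5p, miR-195a-5p, miR-497a-5p and the summed smooth muscle miRNAs in control (C, blue) and EtOH (E, red) libraries by replicate number. Control replicate 2 is highest in all panels, at 803 CPM for miR-195a-5p and 43068 CPM for the muscle sum.

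Red blood cell miRNAs (5 of 5 found), of interest because those cells are rich in miR-16-5p, summed to 124 to 1268 CPM in controls and 58.8 to 140.3 CPM in the EtOH group, with miR-144-3p at 0 in at least 1 library. For each 1000 counts of miR-16-5p, miR-451a, their most typical miRNA, had 1.93, 5.85, 1.12 and 13.6 counts in control replicates 1 to 4 and 1.38, 1.70, 2.24 and 2.56 in EtOH replicates 1 to 4. These ranges overlapped, with control replicate 4 highest. Red blood cell transcripts (5 of 5 found) summed to 17.9 to 41.95 CPM in controls and 1.67 to 19.5 CPM in the EtOH group, with Hbb-bt and Alas2 at 0 in at least 1 library. Leukocyte miRNAs (4 of 5 found) summed to 247 to 365 and 24.5 to 144 CPM, with miR-142a-5p at 0 in at least 1 library, and endothelial miRNAs (2 of 2) to 46.9 to 113 and 18.5 to 60.0 CPM. Testis germ-cell miRNAs (6 of 6 found) summed to 7116 to 11505 CPM in controls and 2081 to 5896 in the EtOH group, with miR-449a-5p at 0 in at least 1 library, and epithelial miRNAs (4 of 5) to 1325 to 5315 and 1185 to 2977 CPM, with miR-141-3p at 0 in at least 1 library. The part of these cells in the family's levels was not tested.

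The miRNAs whose profiles lay closest to the family sum across the 8 libraries were miR-25-3p, miR-128-3p, miR-93-5p, miR-103-3p and miR-20a-5p. Their root-mean-square distances to it, on log2 CPM centred on each profile's mean, were 0.15, 0.16, 0.17, 0.17 and 0.18, against a median of 0.60 over 194 mature rows outside the seed family. MiR-93-5p, for example, stood at 2866 ± 736 CPM in controls and 957 ± 218 in the EtOH group (SD, n = 4 each), and miR-25-3p at 1797 ± 619 and 640 ± 126. The profiles share libraries and depth, and the distance is a description only.

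Messenger RNAs known as targets of the family were fragments of low count in these libraries. All 21 listed target genes had rows, and 7 exon rows and 7 intron rows entered the test. None passed the edgeR threshold (0.0217% of all exon rows and 0.232% of all intron rows did), and 2 of 7 exon rows were higher at an unadjusted p below 0.05, where 36.8% of all exon rows were. The median log2 fold change was 0.68 for the target exon rows and 0.70 for all 4600 tested exon rows. Both exon rows belong to Ccnd1, cyclin D1, which drives cells from G1 into S phase. Its row exon_0 held 20, 35, 29 and 45 counts in control replicates 1 to 4 and 105, 150, 90 and 212 in EtOH replicates 1 to 4. As CPM, every EtOH library lay above every control, as in 15.4% of exon rows, with a log2 fold change of 1.72 (SE 0.49, edgeR adjusted p = 0.0552). Row exon_4 held 24 counts in controls and 166 in the EtOH group, 70 of them in EtOH replicate 2 (log2 fold change 2.49, SE 0.75, edgeR adjusted p = 0.0637). Summed over exons, Ccnd1 stood at 10.2 ± 3.40 CPM of library totals in controls (SD, n = 4), 47.7 ± 34.7 in the EtOH group (SD, n = 4) and 32.6 ± 20.8 without EtOH replicate 2 (SD, n = 3). Epididymal epithelium transcripts were higher in the same libraries (ranges above), and their part in the Ccnd1 values was not tested.

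Among the 7 intron rows of targets, 1 was lower at an unadjusted p below 0.05, as were 15.5% of all intron rows. This row, of Cdk6, the kinase partner of cyclin D, had a log2 fold change of -1.24 (SE 0.46, edgeR adjusted p = 0.109) and that of Bcl2, the inhibitor of apoptosis, -0.88 (SE 0.42, edgeR adjusted p = 0.199). The complement of the seed, TGCTGCT, was searched on the transcript strand of the 3′ untranslated regions in GENCODE transcripts, overlapping matches included. It was found in 18 of 21 targets and in 22.2% of 21166 genes. The targets' regions were longer, with a median of 1853 bases against 1084.5. The single match in Ccnd1 and that in Bcl2 are shown with their flanks because these genes are the best known targets, the match in capitals.

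Ccnd1: tgtgcatgccaccaTGCTGCTggcccgg
Bcl2: aataagaaaccctgTGCTGCTatcctgc

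Among the 3922 genes with a region at least as long as that of Ccnd1, 38.7% held a match within that length. For Bcl2 this was so in 53.9% of 819 genes, so that the letters alone are common. The miRNA machinery, from the processing enzyme Drosha to the Argonaute proteins that hold mature miRNAs, had rows for 15 of 15 listed genes, with 13 exon rows and 7 intron rows tested and none past the edgeR threshold. At an unadjusted p below 0.05, 1 exon row and 1 intron row were higher (as were 36.8% of all exon rows and 1.73% of all intron rows), Ago1 exon_0 with a log2 fold change of 1.25 (SE 0.51, edgeR adjusted p = 0.137) and Tnrc6c intron_0 with 1.38 (SE 0.60, edgeR adjusted p = 0.163). Ago2, the Argonaute with slicing activity, was the most counted of them. Its row exon_0 held 1168, 733, 1015 and 1332 counts in control replicates 1 to 4 and 2000, 413, 2912 and 1002 in EtOH replicates 1 to 4, with a log2 fold change of -0.10 (SE 0.42, edgeR adjusted p = 0.92).

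Both identifier forms of the EtOH libraries gave values below the controls for each member. Against the 4 controls, the PO_M libraries (EtOH replicates 1 and 2) gave log2 fold changes of -1.77 for miR-16-5p, -2.28 for miR-195a-5p and -1.91 for miR-15b-5p (edgeR adjusted p = 0.0288, 0.0476 and 0.0227) and -3.88 for miR-15a-5p, which is at 0 in 1 of them (edgeR adjusted p = 0.0618). The PO_EM libraries (EtOH replicates 3 and 4) gave -1.32, -1.63, -2.91 and -1.26 in the same order of members (edgeR adjusted p = 0.152, 0.245, 0.398 and 0.202), with miR-15b-5p at 0 in 1 of them. Over the whole table, 2572 of 13606 rows were called with the PO_M libraries and 19 of 12393 with the PO_EM libraries. Of the miRNA rows, 102 of 263 were called lower with the PO_M libraries and 0 of 270 with the PO_EM libraries. The difference between the forms was not tested.

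**Figure D5:**
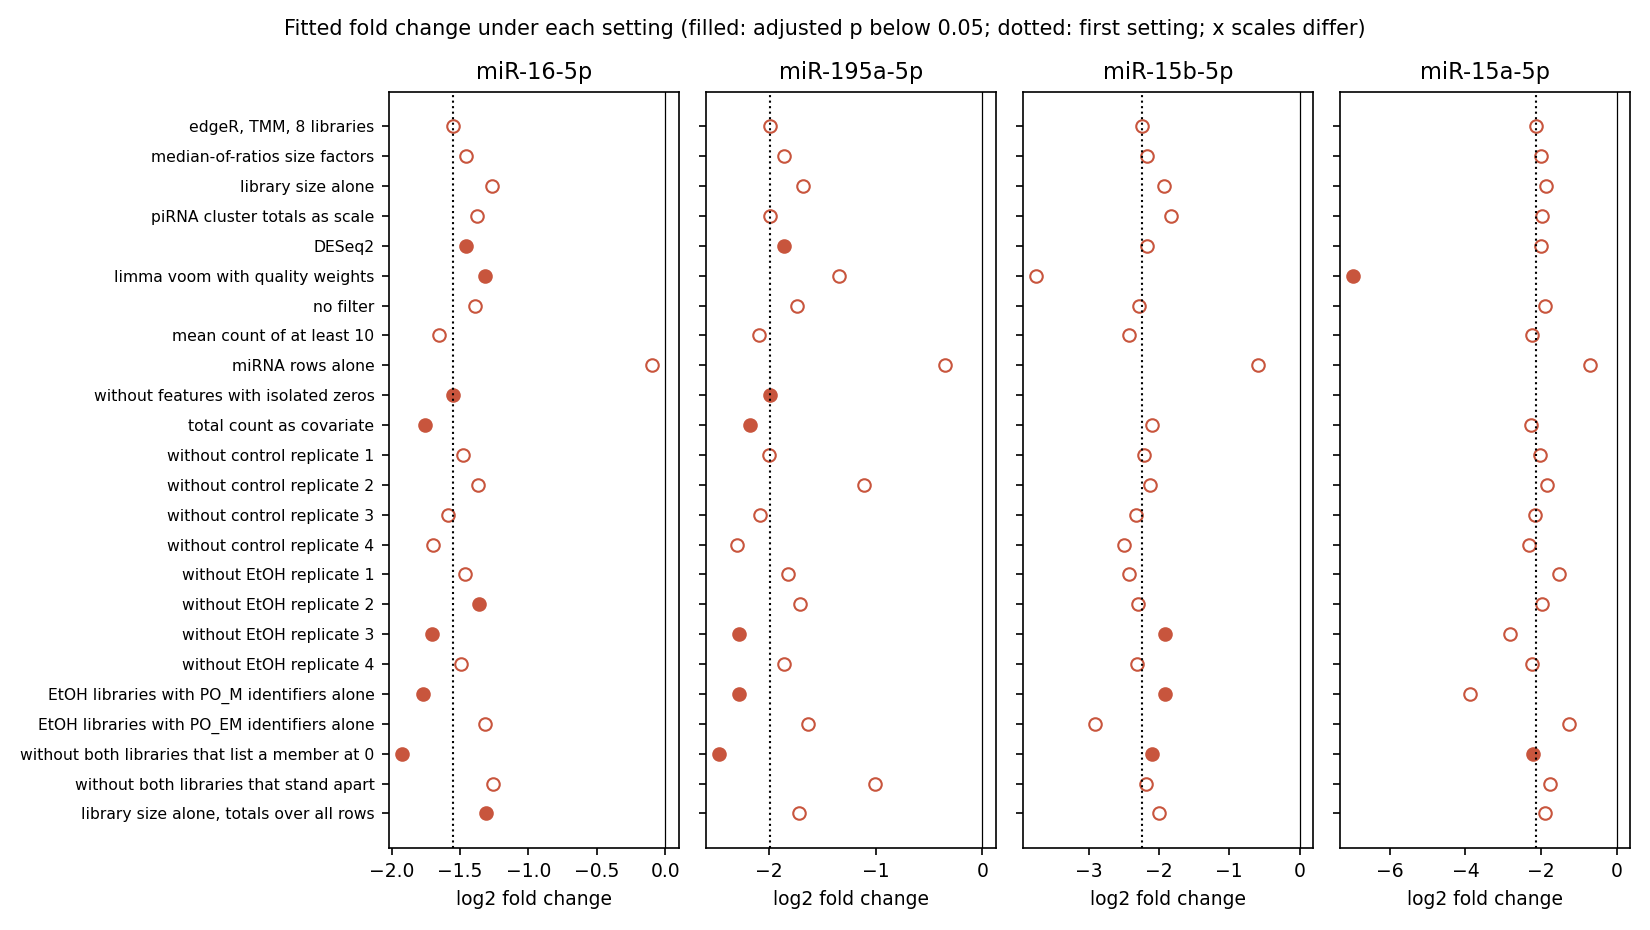
Fitted log2 fold change, EtOH over control (horizontal axes, 1 scale per panel), of each member under every setting computed (vertical axis), filled where the adjusted p is below 0.05; the dotted line is the value of the first setting. All points lie below 0, and those of the fit on miRNA rows alone lie nearest to it, at -0.10 for miR-16-5p.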

How the data were processed

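The deposited table holds whole-number counts per annotated feature, with no normalization by the authors. Only read 1 was used, per the labels, and the submitters' processing notes name cutadapt, a tool that removes adapters. The labels' protocols give extraction with guanidinium thiocyanate and tris(2-carboxyethyl)phosphine. Aligner, genome build of the counts, annotation and strand setting were not given in the sources used here. All per-sample columns were matched to samples by title.

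Groups came from the treatment label. Rows were kept by the filterByExpr defaults of edgeR 4.0.16, scaled by TMM and tested with its quasi-likelihood test in R 4.3.3, adjusted over all 10234 tested rows at 0.05. Shares and ratios of members were compared by exact permutation in scipy 1.17.1 and adjusted over the 4 members and 6 pairs that had values. Exon sums of single genes use CPM of library totals, and sums over marker lists use TMM-scaled CPM. The limit of 3 counts for a count of 0 covers counting error only. Alternatives used DESeq2 1.42.0, limma 3.58.1, other scalings and filters, and single libraries left out. Fits without EtOH replicates 1 and 3, without EtOH replicate 2 and control replicate 2, with totals over all rows, and a threshold of 0.1 were chosen after seeing the data. The edgeR fit was tested on simulated counts with 200 changed features. Shifts of a whole class and isolated zeros were not built into them. The members and lists were chosen with earlier results of these data known. Named were all members, their arms, precursors, seed relatives, cluster partners and host genes. Also named were the 5 nearest and 5 most abundant miRNAs, and up to 4 rows of lowest p among targets and machinery. Ago2, the exon sums of Ccnd1, the marker miRNAs miR-451a and miR-143-3p, and the single leukocyte miRNAs were singled out after their values were seen.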

Additional observations from a re-analysis of the deposited data

Results flagged for a closer look

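In groups of 4 libraries, 4 values lay far from the others of their group by Dixon's ratio, which chance alone exceeds in about 1 of 20 groups. More groups than these were screened, so some such values can arise by chance. The share of miR-15b-5p in the miRNA counts was 0% in EtOH replicate 3, while the remaining libraries of its group had 1.41% to 1.55%. The share of the 3 members other than miR-16-5p was for the same reason 0.421% in EtOH replicate 3 and 1.59% to 1.81% elsewhere in that group. MiR-195a-5p stood at 803 CPM in control replicate 2 and at 136 to 224 CPM in the other controls. MiR-497a-5p stood at 81.5 CPM in control replicate 2 and at 9.82 to 15.2 CPM in the other controls.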

How the results depend on the processing

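The fitted change of each member stayed below 0 in all settings computed (23 for miR-16-5p and miR-195a-5p, 22 for miR-15a-5p and miR-15b-5p, which were left untested without features with isolated zeros), but the number past the threshold did not hold at 0. It was 2 of 4 with DESeq2, with limma voom, with the total count as covariate and at an adjusted p below 0.1, 2 of the 2 tested without features with isolated zeros, 3 with the PO_M libraries alone, 1 with library size alone over all rows and 4 without EtOH replicates 1 and 3. Leaving out single libraries gave 0 to 3 members, with 1 without EtOH replicate 2 and 3 without EtOH replicate 3. Many miRNA rows were called lower in the same fits. They were 117 of 228 with DESeq2, 74 of 228 with limma voom and 140 of 228 with the covariate. They were 81 of 200 without isolated zeros, 102 of 263 with PO_M libraries and 47 of 228 with library size over all rows. Without EtOH replicates 1 and 3 they were 138 of 261. On leaving out EtOH replicate 2 or 3 alone they were 67 of 249 or 139 of 239. No such share was counted for the threshold of 0.1, which also takes in the 437 rows of the whole table at the adjusted p of miR-16-5p. Over the whole table, 19 of 10234 tested features were called. The number was 9 with median-of-ratios size factors and with library size alone, 1 with piRNA cluster totals as scale, 1747 with DESeq2, 655 with limma voom, 1642 with no filter, 11 with a mean count of at least 10, 1 among miRNA rows alone, 714 without features with isolated zeros, 3208 with the covariate, 2572 with the PO_M libraries, 3951 without EtOH replicates 1 and 3, 371 without both libraries that stand apart and 818 with library size over all rows. Rows tested numbered 10234 unless the filter or the libraries changed. They were 867194 with no filter, 12535 with a mean count of at least 10, 241 among miRNA rows and 10180 without isolated zeros. They were 13606 with the PO_M libraries, 13933 without EtOH replicates 1 and 3 and 11538 without both libraries that stand apart. On leaving out single libraries the number called ran from 3 of 10816 (without EtOH replicate 4) to 2332 of 11584 (without EtOH replicate 3). The cause was not tested. The median log2 fold change of all rows was -0.09, and 0.18 with library size alone. The family's mean share was 6.22% of counts in controls and 2.44% in the EtOH group, 0.436% and 0.111% without miR-16-5p, and 30.7% and 28.9% of miRNA counts. Some values that passed no test changed sign when a library was left out. The share of miR-16-5p differed by -2.06 to 0.139 points (above 0 without control replicate 1) and that of miR-195a-5p by -0.0402 to 0.0115 points (above 0 without control replicate 2). The group difference of the log2 ratio of miR-16-5p to miR-195a-5p ran from -0.25 (without control replicate 2) to 0.30, that of miR-15a-5p to miR-15b-5p from -3.97 (without EtOH replicate 3) to 4.79, with -0.14 without both libraries at 0, and that of miR-15b-5p to miR-195a-5p from -4.88 to 0.0412 (without EtOH replicate 3, which lists miR-15b-5p at 0). Among target rows (7 exon and 7 intron rows in the edgeR fit of all 8 libraries), 0 to 4 passed the threshold over the settings. With DESeq2, which called 1747 of 10234 rows, these were both Ccnd1 exon rows (DESeq2 adjusted p = 0.0032 for exon_0 and 0.0045 for exon_4). The numbers called over the whole table in the other settings are given above. No paired analysis was possible because the labels give no replicate numbers. Opposite arms and precursors had few counts, and most were not tested.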

Other observations

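Isolated zeros occurred in both groups and outside the family. They numbered 12, 16, 4 and 11 in control replicates 1 to 4 and 20, 7, 32 and 11 in EtOH replicates 1 to 4, counted as features at 0 where both the median of the libraries above 0 and that of the same group predict at least 50 counts. The next most abundant miRNAs after miR-16-5p were among them, since let-7a-5p was listed at 0 in control replicate 2 and at 71175, 65562 and 64880 counts in the other controls, and let-7c-5p at 0 in the same library and at 31924, 58283 and 53512 in the others.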
